A study of Mus musculus with 13 samples.

Results

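The Wnt pathway was followed in the developing mouse submandibular gland through 56 of the 23364 genes measured, chosen by symbol. They comprised the 19 Wnt ligands, the secretion factors Porcn and Wls, the 10 Frizzled receptors, the co-receptors Lrp5 and Lrp6, the R-spondins with the ligases Rnf43 and Znrf3, the secreted inhibitors of the Sfrp and Dkk families with Wif1, the destruction complex genes Axin1, Axin2 and Apc with Ctnnb1, and the TCF/LEF factors. All 56 were in the files, and the 45 that reached 1 FPKM (fragments per kilobase of gene, scaled to the library's mapped reads) in at least 1 sample were tested. RNA-seq libraries were made from dissected whole glands of C57BL/6 mice. The samples fell into embryonic glands at E14.5 (3 samples), E16.5 (2) and E18.5 (2), neonatal glands at P5 (2), and adult glands at 4wk (2) and 12wk (2), with embryo, neonatal and adult taken as the 3 stages. No genotype or treatment differed between groups. Each E14.5 library held glands of 3 animals and each E16.5 or E18.5 library those of 2, and the adult mice were male, while the sex of younger animals was unknown, so that sex and age cannot be told apart here. Whole glands mix epithelium, mesenchyme, vessels and nerves, so that fewer cells of a type and less RNA per cell cannot be told apart.

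Wnt ligands are lipid-modified proteins that need the acyltransferase Porcn and the carrier Wls to leave the cell. At the receiving cell they bind a Frizzled receptor with Lrp5 or Lrp6, which stops the destruction complex from degrading β-catenin, and β-catenin then works with TCF/LEF factors on target genes. Sfrp proteins and Wif1 bind the ligands, most Dkk proteins block the co-receptors, and R-spondins protect the receptors from the ligases Rnf43 and Znrf3. In the embryonic salivary gland the pathway is known for its part in branching and duct formation, with signals that pass between mesenchyme and epithelium.

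Depth was 5817293 and 7957918 reads on genes in the 4wk libraries and 17345305 to 48314162 in the other 11. The 10 highest genes took 5.93% to 16.501% of all FPKM in the embryonic libraries, 29.2% and 31.1% at P5 and 48.1% to 61.1% in the adult libraries. FPKM are scaled to a library's total reads, so that reads on a few high genes lower the FPKM of all others. Each limma comparison of the Wnt genes is therefore also given after rescaling each library by its median-of-ratios factor. Cell type markers are given in the deposited FPKM only. The rescaling moved the median log2 difference of all tested genes between adult and embryo from -0.75 to -0.08, and between 4wk and P5 from -0.53 to -0.06. Epithelial markers were present throughout and did not move together: Epcam was between 101 and 307 FPKM in the embryonic and between 141 and 174 FPKM in the adult libraries, while Smgc went from at most 6.23 FPKM at E14.5 to 47357 FPKM at P5 and at most 58.6 FPKM in the adult. E14.5 replicate 1 stood apart: 14 of the 45 tested Wnt genes (31.1%) were more than 1.5 times above both other E14.5 libraries, against 10.6% of all tested genes. That library also held more of the muscle gene Myog (47.3 FPKM against 12.7 and 10.8) and less of Epcam (101 FPKM against 163 and 159). The muscle gene Ckm was lower there (5.79 FPKM against 10.4 and 6.90) and the epithelial gene Krt5 higher (21.5 FPKM against 8.81 and 10.2). Summed skeletal muscle markers were at 270 FPKM against 135 and 106, and summed epithelial markers at 415 FPKM against 673 and 657.

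Across the time points, the inhibitors Sfrp1, Sfrp2 and Dkk2 and the receptor Fzd2 were highest at E14.5 and lowest in the adult, while the ligand Wnt4 came to make up most of the ligand FPKM. Of the 45 tested genes, 25 had their highest time point mean in the deposited FPKM at E14.5, with 10 at P5, 4 at E16.5, 3 at E18.5, 2 at 4wk and 1, Wnt4, at 12wk. After rescaling the numbers in the same order were 21, 8, 3, 3, 4 and 6, with Apc, Axin1, Fzd5, Fzd9 and Rnf43 also highest at 12wk. The heat map shows the deposited level of every tested gene.

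**Figure D1:**
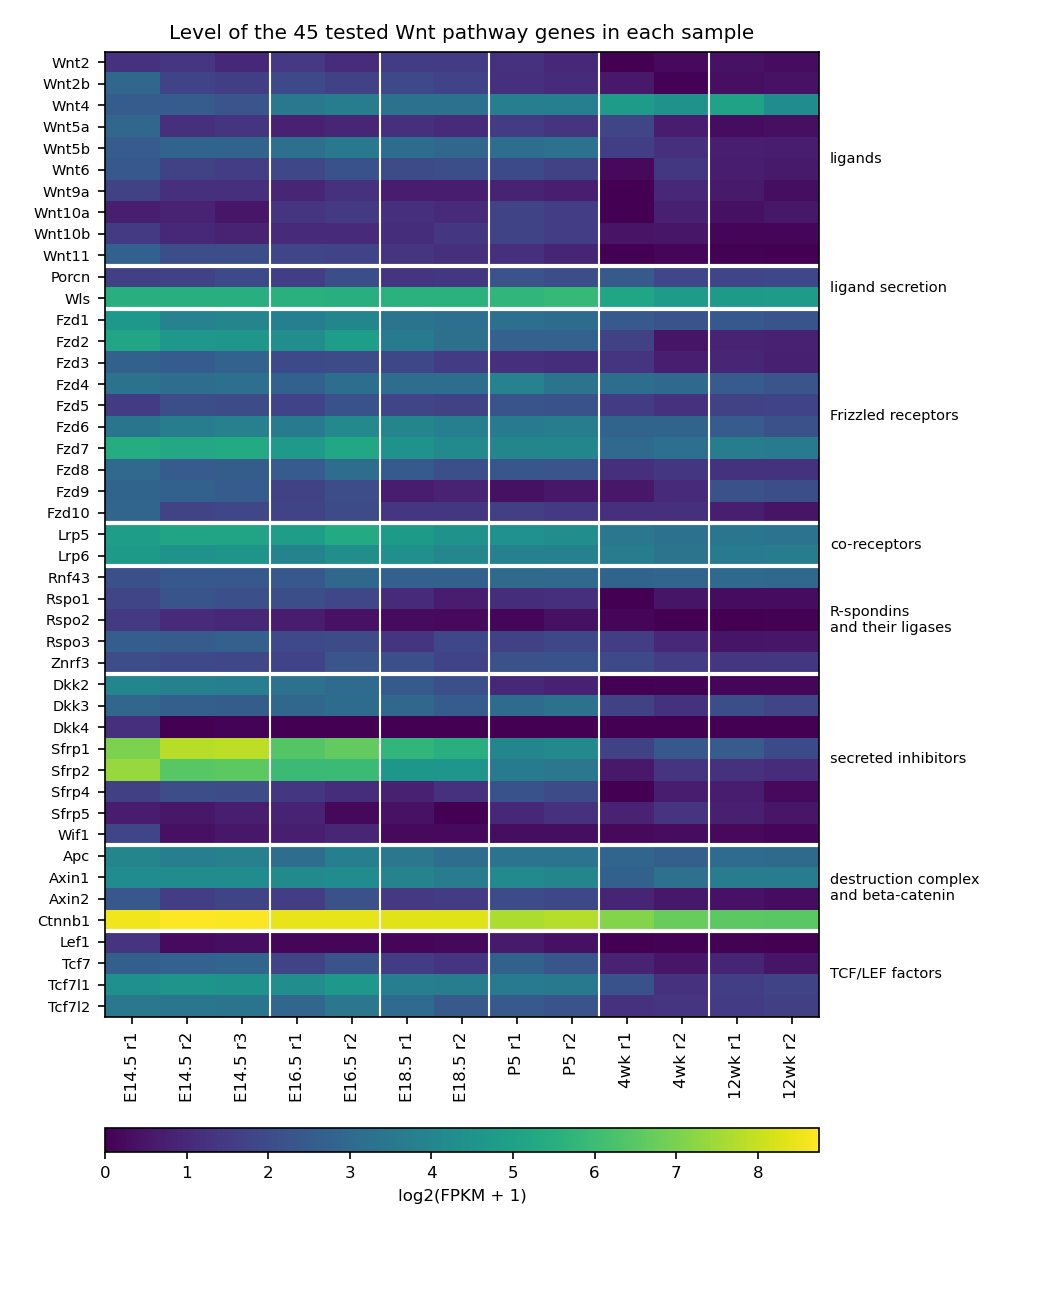
Heat map of log2(FPKM + 1) for the 45 tested Wnt pathway genes (rows, grouped by role) in the 13 samples (columns, in order of age, r1 to r3 for replicates). Ctnnb1, Sfrp1 and Sfrp2 are the brightest rows at E14.5, Wnt4 brightens from left to right, and E14.5 replicate 1 differs from the other E14.5 samples in Wnt5a, Wnt2b, Wif1, Dkk4 and Lef1.

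Adult glands were compared with embryonic glands in a limma fit over all 14650 genes with at least 1 FPKM in a sample, on log2(FPKM + 1), a scale that understates the change of low genes. The fit took all libraries of a stage as replicates, so its spread also holds differences between the ages within a stage. A gene was called where its log2 fold change was 1 or more in either direction and its Benjamini-Hochberg adjusted p was below 0.1. In the deposited FPKM, 24 of the 45 Wnt genes were lower in the adult and 1 was higher, where 38.0% of all tested genes were lower and 5.58% were higher. The median log2 difference was -1.08 over the Wnt genes and -0.75 over all tested genes. After rescaling, 10 Wnt genes were lower and 3 were higher, where 14.7% of all tested genes were lower and 13.8% were higher, with medians of -0.52 and -0.08. Called lower on both scalings were Sfrp2, Sfrp1, Fzd2, Dkk2, Tcf7l1, Wnt5b, Wnt11, Tcf7l2, Wnt2b and Rspo1, and called higher on both was Wnt4. Porcn and Rnf43 were called higher only after rescaling. For 8 genes, namely Lrp6, Axin1, Apc, Wls, Fzd4, Fzd5, Fzd9 and Znrf3, the difference was negative in the deposited and positive in the rescaled FPKM, and none of these 8 was called on either scaling.

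**Figure D2:**
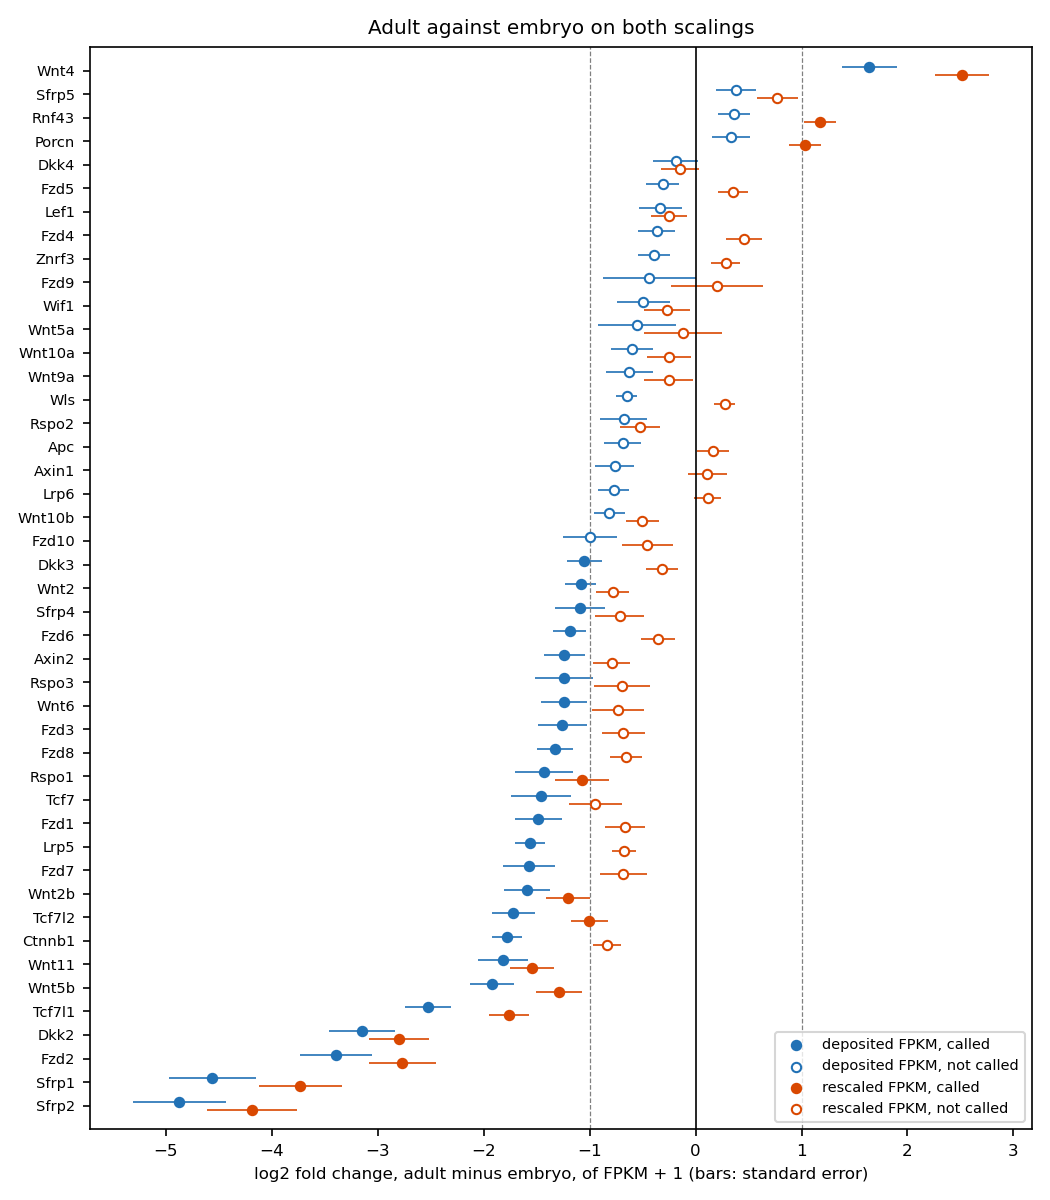
Log2 fold change of FPKM + 1, adult minus embryo, for the 45 tested Wnt pathway genes (rows), in the deposited (blue) and the rescaled (orange) FPKM, with bars for the standard error, filled points for genes called and open points for genes not called. Wnt4 lies at 1.64 and 2.52, Sfrp2 at -4.87 and -4.19, and rescaling moves every gene to the right.

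The start regions of 4 of the genes called on both scalings, Wnt4 (higher) and Sfrp2, Dkk2 and Wnt11 (lower), are printed here as examples, chosen after their values were seen. Sequences are the 250 bases before each gene's RefSeq start (table of build GRCm38.p6), matched without a mismatch to the plus strand of mm9, whose positions are given. Only the 104 bases before the GENCODE start are printed for Wnt4. Of the 56 genes, 36 had such a window, with 46 windows in all. Capitals mark the 3 motifs searched on both strands, namely CTTTGAA and CTTTGAT, which are forms of the core bound by TCF/LEF factors, and TATAAA, the TATA box.
Wnt4, chr4:136833300-136833403, plus strand: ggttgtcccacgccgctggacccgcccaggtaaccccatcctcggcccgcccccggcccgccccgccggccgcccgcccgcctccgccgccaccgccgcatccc
Sfrp2, chr3:83569993-83570242, plus strand: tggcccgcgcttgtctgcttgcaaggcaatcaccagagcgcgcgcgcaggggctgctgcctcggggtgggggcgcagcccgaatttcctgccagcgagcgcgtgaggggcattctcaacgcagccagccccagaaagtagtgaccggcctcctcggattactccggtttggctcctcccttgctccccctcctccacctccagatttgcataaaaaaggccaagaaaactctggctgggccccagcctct
Dkk2, chr3:131748006-131748255, plus strand: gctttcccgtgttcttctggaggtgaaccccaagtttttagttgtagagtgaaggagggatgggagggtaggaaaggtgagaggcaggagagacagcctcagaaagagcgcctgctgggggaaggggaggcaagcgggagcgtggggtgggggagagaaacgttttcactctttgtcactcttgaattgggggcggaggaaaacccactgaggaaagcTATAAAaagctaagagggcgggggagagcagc
Wnt11, chr7:105983372-105983621, plus strand: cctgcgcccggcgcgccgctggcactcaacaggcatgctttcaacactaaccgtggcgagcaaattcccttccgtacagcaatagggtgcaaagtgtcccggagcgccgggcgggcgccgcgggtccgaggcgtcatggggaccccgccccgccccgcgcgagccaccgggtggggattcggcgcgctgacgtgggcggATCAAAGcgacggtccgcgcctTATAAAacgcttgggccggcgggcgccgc

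In the full windows of 250 bases, the GC content was 85.2% for Wnt4, 70.8% for Wnt11, 63.6% for Sfrp2 and 55.6% for Dkk2, beside a median of 66.8% over the 46 Wnt gene windows and 52.4% over all 32851 windows of the table. CTTTGAA was in 1 of the 46 windows (Dkk1) and in 4.46% of all windows, and CTTTGAT was in 2 (Wnt11, on the strand opposite to the gene, and Wnt5b) and in 3.21% of all windows. Among the Wnt genes, these forms were thus found in windows of different genes. TATAAA was in the windows of 9 genes, Dkk2 and Wnt11 among them, and in 12.4% of all windows. A match describes letters in this window and no binding was measured.

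Among the 19 ligands, 10 were tested, and Wnt4 was the one called higher in the adult. Wnt4, a ligand known from kidney and gonad development, lies at chr4:136833404-136855641 in mm9 on the plus strand. Its FPKM were 4.79, 4.82 and 4.00 (E14.5), 10.4 and 11.8 (E16.5), 8.69 and 8.57 (E18.5), 12.2 and 12.7 (P5), 27.8 and 21.6 (4wk) and 31.7 and 18.02 (12wk). All 4 adult libraries lay above all 7 embryonic ones, with both P5 libraries between them. The stage means were 7.57 ± 3.05 FPKM (SD, n = 7) in the embryo and 24.8 ± 6.15 FPKM (SD, n = 4) in the adult, a log2 difference of 1.64 (SE 0.26, adjusted p = 5.97e-05 by limma). After rescaling the log2 difference was 2.52 (SE 0.25, adjusted p = 2.31e-06 by limma).

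Wnt5b, which acts mostly outside the β-catenin branch, was the second ligand by mean level over the time points. Its FPKM were 4.79, 6.14 and 6.08 (E14.5), 8.42 and 10.7 (E16.5), 7.47 and 6.40 (E18.5), 8.05 and 8.58 (P5), 2.07 and 1.33 (4wk) and 0.673 and 0.623 (12wk). The adult libraries lay below every earlier library, with a log2 difference of adult against embryo of -1.92 (SE 0.21, adjusted p = 2.08e-06 by limma) and of -1.29 after rescaling. Wnt6, the third ligand, was at 4.31, 2.25 and 2.01 FPKM (E14.5), 2.65 and 3.62 (E16.5), 3.01 and 3.34 (E18.5), 2.94 and 2.30 (P5), 0.166 and 1.70 (4wk) and 0.576 and 0.561 (12wk). Its log2 difference of -1.25 was called in the deposited FPKM and the -0.73 after rescaling was not.

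Wnt11, a ligand of the planar polarity branch, had a lower mean at each time point than at the one before. It was at 5.58, 3.32 and 3.34 FPKM (E14.5), 2.52 and 2.37 (E16.5), 1.49 and 1.32 (E18.5), 1.27 and 0.885 (P5), 0 and 0.0901 (4wk) and 0.0329 and 0.0126 (12wk). The value of 0 allows up to 0.185 FPKM (3 reads), and the other 3 adult libraries rested on 2, 2 and 1 reads. The log2 difference of adult against embryo was -1.82 (SE 0.24, adjusted p = 1.07e-05 by limma) and -1.54 after rescaling. Wnt2b was between 2.09 and 6.44 FPKM (median 2.41) in the embryo and between 0.0352 and 0.529 FPKM in the adult, with the highest value in E14.5 replicate 1. Wnt2 differed by -1.08 and was called in the deposited FPKM only, and not with 12wk alone as adult (-0.97). Wnt5a, Wnt9a, Wnt10a and Wnt10b were not called between adult and embryo on either scaling, with log2 differences in the deposited FPKM between -0.81 (Wnt10b) and -0.55 (Wnt5a). The Wnt5a difference was -0.30 without E14.5 replicate 1 and -0.89 without 4wk replicate 1, and with 12wk alone as adult it was -1.02 and called.

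The other 9 ligands stayed below 1 FPKM in every library. Their highest single values were 0.869 FPKM for Wnt7b and 0.566 FPKM for Wnt3, both in E14.5 replicate 1, and 0.825 FPKM for Wnt16 in 4wk replicate 1. Wnt1, Wnt3a, Wnt7a, Wnt8a, Wnt8b and Wnt9b did not pass 0.0980 FPKM anywhere. In GENCODE, Wnt7b shares exon sequence with AU022754 on the opposite strand. Reads that fell on several genes were left out of the counts, but whether the gene models used there held this overlap was not checked.

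Within each library, the share of Wnt4 in the summed FPKM of the 19 ligands is free of the scaling between libraries. It was 11.8%, 18.7% and 17.2% (E14.5), 31.0% and 31.1% (E16.5), 28.5% and 29.9% (E18.5), 34.6% and 38.2% (P5), 81.1% and 77.9% (4wk) and 90.5% and 85.3% (12wk). No adult library came within the range of the earlier ones. The sum over the 19 ligands was 23.3 to 40.6 FPKM in the embryo and 21.1 to 35.0 FPKM in the adult, and without Wnt4 it was 19.3 to 35.8 FPKM and 3.11 to 6.50 FPKM. In the deposited FPKM the ligand totals thus overlapped between the stages, and the sums without Wnt4 did not. After rescaling the totals did not overlap either, with 17.9 to 30.2 FPKM in the embryo and 33.4 to 51.4 FPKM in the adult, and the sums without Wnt4 were 14.8 to 26.7 FPKM and 4.86 to 9.89 FPKM.

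**Figure D3:**
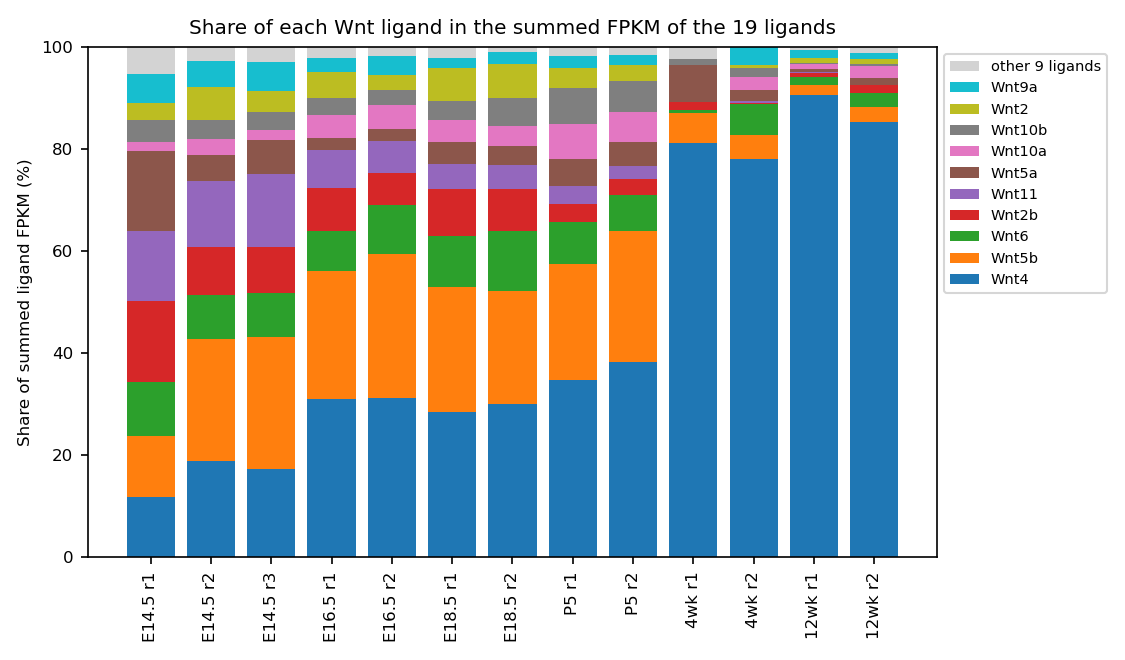
Share of each Wnt ligand (colours) in the summed FPKM of the 19 ligands, in percent, for each of the 13 samples in order of age. Wnt4, at the bottom of each bar, takes 11.8% to 18.7% at E14.5 and 77.9% to 90.5% in the adult samples, while Wnt5b and Wnt11 shrink.

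Both genes of ligand secretion were expressed throughout. Wls, the carrier of Wnt ligands to the cell surface, was at 44.7, 45.4 and 44.2 FPKM (E14.5), 45.9 and 44.4 (E16.5), 46.6 and 47.4 (E18.5), 53.3 and 57.3 (P5), 35.4 and 26.7 (4wk) and 26.3 and 26.9 (12wk). The 7 embryonic libraries differed by little (45.5 ± 1.20 FPKM, SD, n = 7) and every adult library lay below them in the deposited FPKM. The log2 difference of adult against embryo was -0.65 in the deposited and 0.27 in the rescaled FPKM, under the fold threshold on both. Porcn was at 2.16, 2.205 and 2.94 FPKM (E14.5), 2.05 and 3.27 (E16.5), 1.55 and 1.69 (E18.5), 3.69 and 3.29 (P5), 4.62 and 2.65 (4wk) and 2.56 and 2.69 (12wk). Its adult and embryonic libraries overlapped in the deposited FPKM (log2 difference 0.33, adjusted p = 0.0997 by limma, and 0.18 without 4wk replicate 1). After rescaling they did not overlap, and Porcn was called higher in the adult (log2 difference 1.04, adjusted p = 5.68e-05 by limma). That call was close to the fold threshold and was lost after rescaling with 12wk alone as adult.

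Of the 10 Frizzled receptors, 6 were lower in the adult in the deposited FPKM (Fzd1, Fzd2, Fzd3, Fzd6, Fzd7 and Fzd8), where 38.0% of all tested genes were lower. After rescaling 1 of the 10, Fzd2, was called lower, where 14.7% of all tested genes were. Fzd2 was at 35.1, 24.4 and 23.7 FPKM (E14.5), 18.49 and 28.0 (E16.5), 11.0 and 8.43 (E18.5), 5.66 and 5.67 (P5), 2.23 and 0.416 (4wk) and 0.783 and 0.727 (12wk). The stages did not overlap, and the log2 difference of adult against embryo was -3.39 (SE 0.34, adjusted p = 8.93e-07 by limma) and -2.77 after rescaling. Fzd7, the highest Frizzled by mean level, was at 41.8, 37.9 and 39.9 FPKM (E14.5), 25.4 and 36.3 (E16.5), 21.4 and 16.7 (E18.5), 15.2 and 15.4 (P5), 6.97 and 8.07 (4wk) and 11.9 and 11.4 (12wk). Its log2 difference was -1.57 in the deposited FPKM, where it was called, and -0.69 after rescaling, where it was not.

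Fzd6, known from tissue polarity in skin and hair, was at 9.61, 11.8 and 12.9 FPKM (E14.5), 11.1 and 16.2 (E16.5), 14.9 and 12.8 (E18.5), 11.6 and 12.1 (P5), 6.07 and 5.98 (4wk) and 4.67 and 3.52 (12wk). Its level held through P5 and was lower in the adult in the deposited FPKM (log2 difference -1.19), with -0.36 after rescaling, which was not called. Fzd4 was between 5.61 and 8.77 FPKM in the embryo, at 13.9 and 9.28 FPKM at P5 and between 3.99 and 7.98 FPKM in the adult, and Fzd5 between 1.92 and 3.64 FPKM in the embryo and between 1.38 and 2.36 FPKM in the adult. Fzd10, with 6.28 FPKM in E14.5 replicate 1 and 1.60 to 3.13 FPKM in the other embryonic libraries, differed by -0.997, just short of the fold threshold, and was not called, while it was called without any 1 of E14.5 replicate 2, E16.5 replicate 1, E18.5 replicate 1 or 2 and 4wk replicate 1 or 2, and with 12wk alone as adult (-1.29).

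Fzd9 was low from E18.5 to 4wk and higher again at 12wk. It was at 6.10, 5.61 and 4.89 FPKM (E14.5), 2.34 and 3.15 (E16.5), 0.628 and 0.818 (E18.5), 0.304 and 0.472 (P5), 0.489 and 1.13 (4wk) and 3.50 and 3.33 (12wk). The adult and embryonic ranges overlapped and the log2 difference of -0.44 was not called (adjusted p = 0.375 by limma). The difference was -0.13 without 4wk replicate 1, -0.29 without E14.5 replicate 1 and -0.66 without 12wk replicate 1, and 0.22 with 12wk alone as adult, none of them called. Within each library the share of Fzd2 in the summed Frizzled FPKM was 19.6% to 23.9% at E14.5 and 1.33% to 6.52% in the adult, and that of Fzd9 was 9.95% and 10.5% at 12wk against 0.459% and 0.774% at P5.

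The calls of the co-receptors depended on the scaling. Lrp5 was at 29.2, 33.8 and 33.4 FPKM (E14.5), 28.4 and 40.0 (E16.5), 26.3 and 21.4 (E18.5), 20.6 and 19.1 (P5), 9.97 and 8.89 (4wk) and 9.86 and 8.99 (12wk). The adult libraries lay under all earlier ones, and the log2 difference was -1.57 (SE 0.14, adjusted p = 4.21e-07 by limma) in the deposited FPKM, where it was called, and -0.68 after rescaling, where it was not. Lrp6 was at 26.4, 20.9 and 21.8 FPKM (E14.5), 14.4 and 18.9 (E16.5), 19.8 and 15.5 (E18.5), 13.5 and 13.4 (P5), 11.7 and 9.32 (4wk) and 11.1 and 11.6 (12wk). Its log2 difference of -0.77 turned to 0.11 after rescaling, and neither was called.

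Among the R-spondins and the ligases they act on, neither ligase was called lower in the adult, while Rspo1 and Rspo3 were. Rnf43 was at 3.40, 4.37 and 4.34 FPKM (E14.5), 4.19 and 6.77 (E16.5), 5.59 and 5.51 (E18.5), 7.20 and 7.02 (P5), 6.02 and 6.15 (4wk) and 7.04 and 6.55 (12wk). In the deposited FPKM the stages overlapped (log2 difference 0.36), and after rescaling they did not and Rnf43 was called higher in the adult (log2 difference 1.17, SE 0.15, adjusted p = 1.76e-05 by limma). Znrf3 was at 3.15, 2.81 and 2.66 FPKM (E14.5), 2.37 and 3.90 (E16.5), 3.38 and 2.41 (E18.5), 3.52 and 3.57 (P5), 2.84 and 2.03 (4wk) and 1.58 and 1.66 (12wk), with a log2 difference of -0.39 that turned to 0.28 after rescaling and was called on neither.

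Rspo3, the highest R-spondin, was at 5.11, 4.74 and 5.36 FPKM (E14.5), 2.83 and 3.07 (E16.5), 1.49 and 2.69 (E18.5), 2.24 and 2.74 (P5), 2.01 and 0.944 (4wk) and 0.421 and 0.440 (12wk). It was called in the deposited FPKM (log2 difference -1.24) although the value of 2.01 in 4wk replicate 1 lay above the 1.49 in E18.5 replicate 1, and it was not called after rescaling (-0.69). Rspo1 was at 2.55, 3.85 and 3.39 FPKM (E14.5), 3.25 and 2.62 (E16.5), 1.07 and 0.588 (E18.5), 1.22 and 1.29 (P5), 0 and 0.411 (4wk) and 0.225 and 0.211 (12wk). It was called lower on both scalings (-1.43 and -1.07), with stages that did not overlap in the deposited FPKM and did after rescaling. Rspo2 was between 0.157 and 1.83 FPKM in the embryo and at most 0.103 FPKM in the adult and was not called, and Rspo4 did not pass 0.219 FPKM.

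The largest differences of single genes between adult and embryo were among the secreted inhibitors. As a role, their median log2 difference was -1.07 in the deposited FPKM and -0.52 after rescaling. For the TCF/LEF factors these medians were -1.59 and -0.98. Sfrp1 and Sfrp2, which bind Wnt ligands outside the cell, were the highest of the 9 inhibitors, and both lay far lower in the adult. Sfrp1 was at 128, 223 and 232 FPKM (E14.5), 83.9 and 99.1 (E16.5), 52.5 and 44.3 (E18.5), 15.1 and 16.6 (P5), 2.28 and 4.28 (4wk) and 4.72 and 2.92 (12wk). Sfrp2 was at 167, 88.9 and 91.6 FPKM (E14.5), 62.0 and 60.9 (E16.5), 23.8 and 23.4 (E18.5), 10.8 and 9.99 (P5), 0.515 and 1.51 (4wk) and 1.37 and 1.14 (12wk). From E14.5 to P5 no time point of either gene overlapped the next, and E14.5 replicate 1 had the lowest Sfrp1 and the highest Sfrp2 of its group. The log2 difference of adult against embryo was -4.56 for Sfrp1 (SE 0.41, adjusted p = 3.23e-07 by limma) and -3.73 after rescaling. For Sfrp2 it was -4.87 (SE 0.44, adjusted p = 3.78e-07 by limma) and -4.19 after rescaling.

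Dkk2, a ligand of the Lrp co-receptors that blocks or modulates their signal, followed the same course at a lower level. It was at 15.0, 13.1 and 12.5 FPKM (E14.5), 8.75 and 7.31 (E16.5), 4.57 and 3.39 (E18.5), 1.01 and 0.755 (P5), 0 and 0.0339 (4wk) and 0.0990 and 0.0759 (12wk). Each time point through P5 lay wholly below the one before, and the adult values rested on 0 to 8 reads a library, where 0 in 4wk replicate 1 allows up to 0.139 FPKM. The log2 difference was -3.15 (SE 0.31, adjusted p = 8.19e-07 by limma) and -2.80 after rescaling.

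Dkk3, a Dkk family member that does not bind the Lrp co-receptors like its relatives, was at 6.44, 5.22 and 5.04 FPKM (E14.5), 6.43 and 7.55 (E16.5), 6.44 and 4.87 (E18.5), 7.59 and 8.63 (P5), 2.30 and 1.46 (4wk) and 3.32 and 2.59 (12wk). It was called in the deposited FPKM (log2 difference -1.05) and not after rescaling (-0.32), and leaving out 4wk replicate 2 gave -0.90 and ended the call, as did 12wk alone as adult (-0.82). Sfrp4 was at 2.15, 3.21 and 3.02 FPKM (E14.5), 1.60 and 1.23 (E16.5), 0.754 and 1.39 (E18.5), 3.58 and 3.05 (P5), 0 and 0.572 (4wk) and 0.573 and 0.180 (12wk). Its log2 difference of -1.09 was called, and it missed the fold threshold without E14.5 replicate 2 (-0.99) or 4wk replicate 1 (-0.96), and after rescaling (-0.72). Sfrp5, at 0 to 1.52 FPKM, Wif1 and Dkk4 were not called, and Dkk1 stayed below the filter with at most 0.672 FPKM.

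The sum of the Sfrp genes over the sum of the ligands, a ratio within a library that no scaling between libraries touches, was 7.34, 12.3 and 14.0 (E14.5), 4.42 and 4.27 (E16.5), 2.54 and 2.41 (E18.5), 0.862 and 0.932 (P5), 0.105 and 0.285 (4wk) and 0.211 and 0.222 (12wk). The Sfrp sum thus stood above the ligand sum in every embryonic library and below it in every later one. The sum of the Frizzled genes over that of the ligands was 3.61 to 5.18 (E14.5), 1.83 and 1.87 at P5 and 0.996 to 1.50 in the adult.

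**Figure D4:**
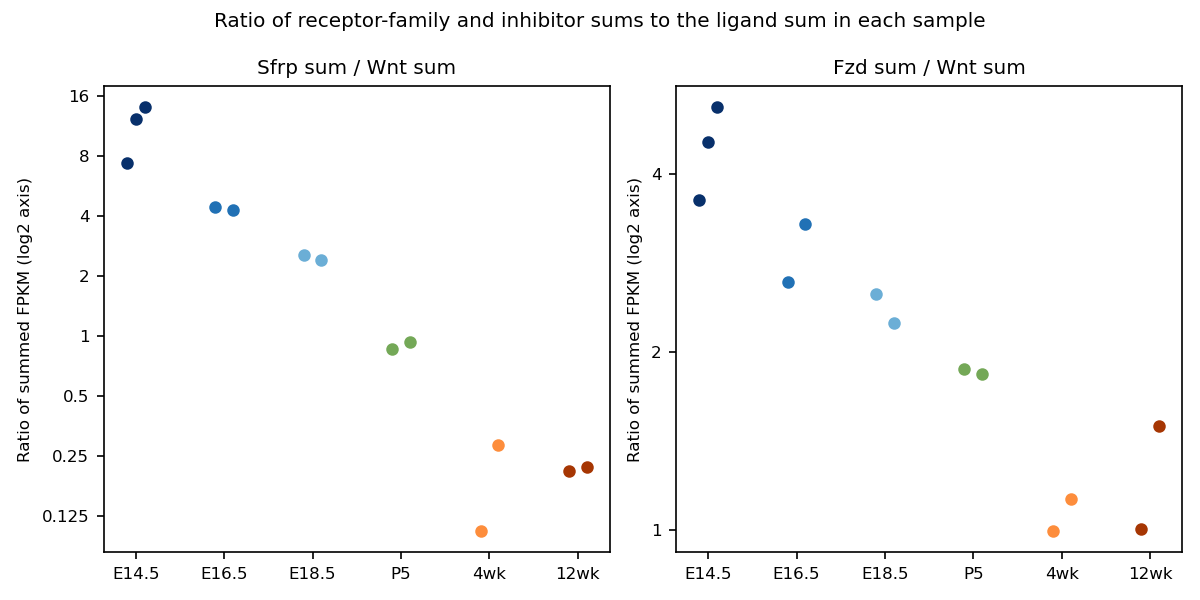
Ratio of the summed FPKM of the Sfrp genes (left) and of the Frizzled genes (right) to that of the 19 Wnt ligands, on log2 axes, with 1 point for each of the 13 samples by time point. The Sfrp ratio goes from 7.34 to 14.0 at E14.5 down to 0.105 to 0.285 in the adult, and the Frizzled ratio from 3.61 to 5.18 down to 0.996 to 1.50.

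Markers of the cell types of the gland were read beside these genes, in the deposited FPKM only. All 10 mesenchyme and fibroblast markers were lower in every adult than in every embryonic library, with summed FPKM of 1899.8 to 2794.8 in the embryo, 1651.6 to 1822.1 at P5 and 260.8 to 527.7 in the adult. All 6 markers of dividing cells did likewise (305.6 to 411.3 FPKM, 106.5 to 112.5 FPKM and 2.59 to 31.5 FPKM), as did all 5 endothelial markers (101 to 127 FPKM in the embryo and 24.1 to 42.4 FPKM in the adult). Of the 11 epithelial markers, 1 was lower and 1 higher in every adult than in every embryonic library, and no marker of any list was at 0 throughout. Their summed FPKM were 415 to 673 at E14.5, 2691 to 3843 at E16.5, 19385 to 21220 at E18.5, 44522 to 49141 at P5 and 1018 to 1360 in the adult, with most of the E18.5 and P5 sums from the secretory gene Smgc alone (42935 and 47357 FPKM at P5). The nerve and glia markers were lower in 4 of 6 (20.5 to 64.7 FPKM summed in the embryo and 8.33 to 10.9 FPKM in the adult), and the immune markers were higher in 1 of 6 (20.4 to 32.5 FPKM and 26.5 to 36.9 FPKM). Skeletal muscle markers summed to 106 to 888 FPKM at E14.5 and E16.5 and to 1.04 to 21.8 FPKM in all later libraries. Of all tested genes 38.0% were called lower in the adult in the deposited FPKM, which is a different measure from these marker counts. The share of all tested genes whose adult and embryonic libraries did not overlap was not counted. Rescaling divides adult libraries by 0.617 to 0.714 and embryonic ones by 1.15 to 1.38. It thus raises adult values beside embryonic ones, and the marker counts may not hold on that scale. The part of these cells in the Wnt gene differences was not tested.

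In the destruction complex, Ctnnb1, which encodes β-catenin and also serves at cell junctions, was the most abundant Wnt pathway gene of all. It was at 378, 429 and 410 FPKM (E14.5), 351 and 345 (E16.5), 324 and 319 (E18.5), 204 and 220 (P5), 138 and 105 (4wk) and 93.3 and 90.0 (12wk). In the deposited FPKM each time point lay below the one before, while the rescaled means were 266 FPKM at E16.5 and 272 FPKM at E18.5. The log2 difference of adult against embryo was -1.78 (SE 0.14, adjusted p = 1.05e-07 by limma) in the deposited FPKM. After rescaling it was -0.84, which missed the fold threshold at an adjusted p of 9.64e-05 by limma. In GENCODE, Ctnnb1 shares exon sequence with Ulk4 on the opposite strand. Reads that fell on several genes were not counted, but whether the gene models used for counting held this overlap was not checked.

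Axin1 was at 17.9, 17.9 and 18.1 FPKM (E14.5), 17.0 and 18.2 (E16.5), 14.1 and 12.2 (E18.5), 16.7 and 15.2 (P5), 5.55 and 8.78 (4wk) and 12.1 and 11.9 (12wk). Apc was at 14.8, 12.4 and 13.1 FPKM (E14.5), 7.80 and 12.8 (E16.5), 10.2 and 7.74 (E18.5), 9.06 and 9.09 (P5), 6.26 and 5.33 (4wk) and 7.27 and 7.13 (12wk). Neither scaffold was called between adult and embryo, with log2 differences of -0.76 (Axin1) and -0.69 (Apc) that turned to 0.11 and 0.16 after rescaling. Axin2, a scaffold and a direct target of the β-catenin branch, was at 4.18, 2.02 and 2.48 FPKM (E14.5), 1.99 and 3.45 (E16.5), 1.75 and 1.92 (E18.5), 3.12 and 2.72 (P5), 0.888 and 0.472 (4wk) and 0.334 and 0.231 (12wk). Its adult libraries lay below all earlier ones on both scalings, with a log2 difference of -1.24 (SE 0.19, adjusted p = 4.98e-05 by limma) and of -0.79 after rescaling, under the fold threshold.

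Of the TCF/LEF factors, which carry β-catenin to DNA, Tcf7l1, Tcf7l2 and Tcf7 were called lower in the adult, the first of these known mostly as a repressor. Tcf7l1 was at 19.8, 22.1 and 21.3 FPKM (E14.5), 18.4 and 24.5 (E16.5), 12.3 and 11.9 (E18.5), 11.3 and 10.7 (P5), 3.64 and 1.40 (4wk) and 2.09 and 2.48 (12wk). The log2 difference of adult against embryo was -2.53 (SE 0.22, adjusted p = 2.34e-07 by limma) and -1.76 after rescaling, with adult libraries below every embryonic one. Tcf7l1 shares exon sequence with Gm15401 on the opposite strand.

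Tcf7l2 was at 10.3, 9.80 and 9.28 FPKM (E14.5), 6.47 and 10.1 (E16.5), 7.32 and 4.43 (E18.5), 4.46 and 3.77 (P5), 1.40 and 1.46 (4wk) and 1.96 and 2.16 (12wk), and was called on both scalings (log2 differences of -1.72 and -1.01). After rescaling with 12wk alone as adult, Tcf7l2 differed by -0.81 and was not called. Tcf7 was at 5.27, 5.78 and 6.16 FPKM (E14.5), 2.47 and 3.75 (E16.5), 1.89 and 1.55 (E18.5), 5.57 and 4.11 (P5), 0.850 and 0.452 (4wk) and 0.865 and 0.411 (12wk). Its course had a second high at P5, and its log2 difference of adult against embryo of -1.46 was called, while the -0.95 after rescaling was not. Lef1, the remaining factor, reached 1.49 FPKM in E14.5 replicate 1, was between 0.0823 and 0.264 FPKM in the other embryonic libraries and between 0 and 0.0341 FPKM in the adult, and was not called.

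**Figure D5:**
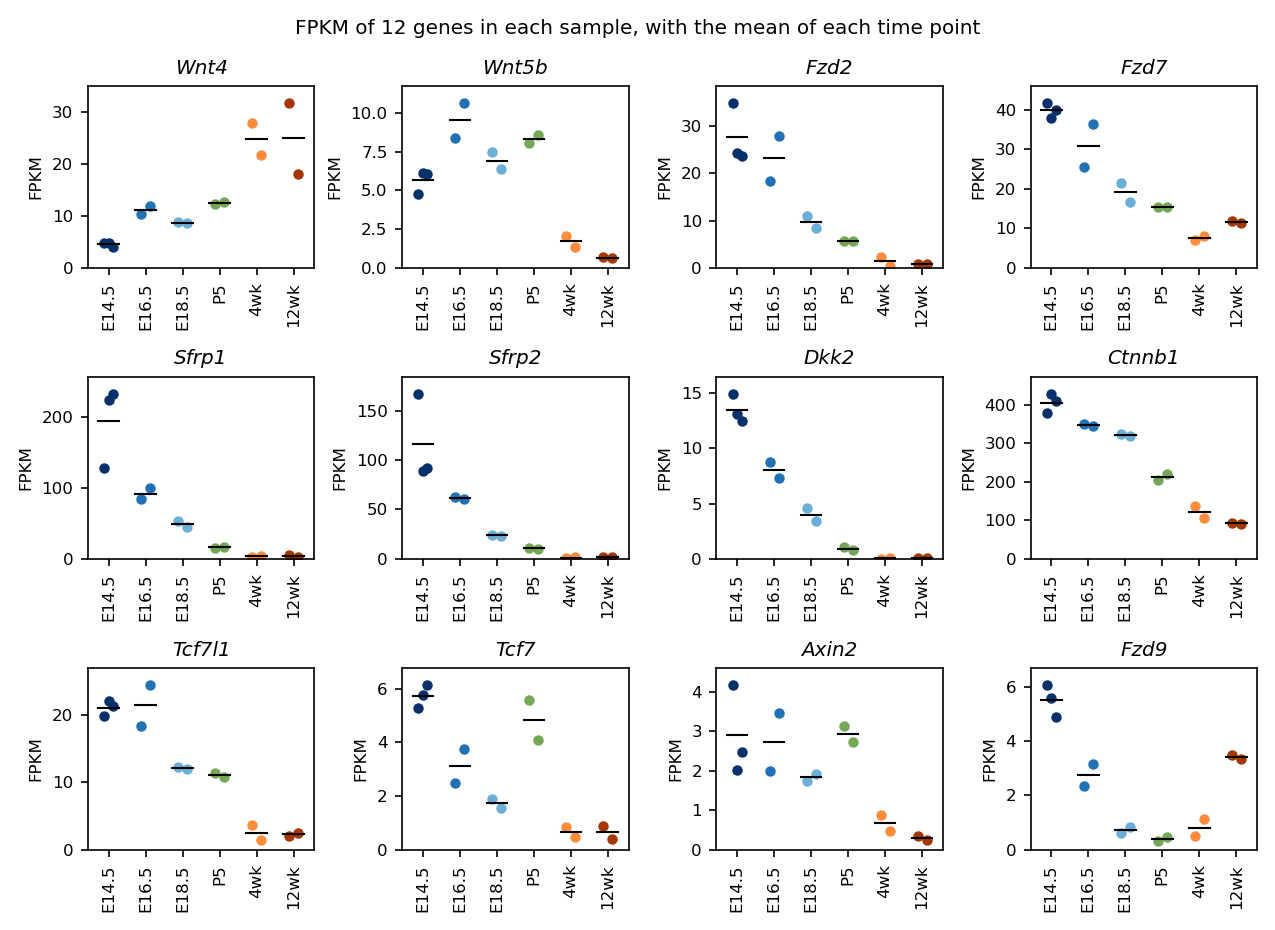
FPKM (linear axes from 0, each gene with its own range) of 12 Wnt pathway genes by time point, with 1 point for each sample and a bar for the mean of the time point. Wnt4 lies between 4.00 and 4.82 at E14.5 and between 18.02 and 31.7 in the adult, Sfrp1, Sfrp2, Dkk2 and Fzd2 are highest at E14.5, Tcf7 and Axin2 are higher at P5 than at E18.5, and Fzd9 is higher at 12wk than at 4wk.

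To place these changes in time, each time point was compared with the one before in a second limma fit with the 6 time points as groups. From E14.5 to E16.5, Wnt4 rose by 1.13 (log2, SE 0.20, adjusted p = 0.00396 by limma) and Sfrp1 fell by 1.03 (log2, SE 0.27, adjusted p = 0.0252 by limma), where 4.17% of all tested genes rose and 0.983% fell. Both calls held after rescaling. The call of Sfrp1 was lost without E14.5 replicate 2 (-0.91), E14.5 replicate 3 (-0.88) or E16.5 replicate 1 (-0.92), and that of Wnt4 held with each library left out. Without E14.5 replicate 1 the 2 genes were called as well.

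From E16.5 to E18.5, 4 Wnt genes fell and 0 rose in limma (with 14 lower and 0 higher at an unadjusted p under 0.05), where 1.85% of all tested genes fell and 1.09% rose. The log2 differences were -1.34 for Sfrp2 (adjusted p = 0.0159 by limma), -1.16 for Fzd2 (0.0551), -1.11 for Fzd9 (0.00777) and -1.11 for Rspo1 (0.0112). Of these, Sfrp2 was also called after rescaling. Leaving out E18.5 replicate 2 ended the calls of Fzd2 (-0.99), Rspo1 (-0.92) and Sfrp2 (-1.33), and leaving out E16.5 replicate 2 ended those of Fzd2 (-0.87) and Fzd9 (-0.96). Fzd2 also lost its call without E18.5 replicate 1 (-1.33) and Rspo1 without E16.5 replicate 1 (-0.996). With a pseudocount of 0.1 neither Fzd2 (-1.23) nor Rspo1 (-1.75) was called.

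From E18.5 to P5, across birth, Sfrp4 and Tcf7 rose and Sfrp1, Dkk2 and Sfrp2 fell, where 2.07% of all tested genes rose and 2.97% fell. Tcf7 rose by 1.09 (log2, SE 0.22, adjusted p = 0.00753 by limma) and Sfrp4 by 1.07 (log2, SE 0.26, adjusted p = 0.0161 by limma). Sfrp1 differed by -1.55 (adjusted p = 0.00633 by limma), Dkk2 by -1.40 (0.000606) and Sfrp2 by -1.11 (0.022), and the call of Sfrp2 was lost after rescaling (-0.96). Without P5 replicate 1, Tcf7 (0.91), Sfrp4 (0.98) and Sfrp2 (-1.16) were not called, and without E18.5 replicate 1 neither were Sfrp4 (0.85) and Sfrp2 (-1.10). Sfrp2 also lost its call without P5 replicate 2 (-1.06), and Sfrp4 with a pseudocount of 0.1 (1.60).

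The step with the most calls was from P5 to 4wk. In the deposited FPKM 16 of the 45 genes fell and 0 rose in limma (1 higher and 29 lower at an unadjusted p under 0.05), where 22.1% of all tested genes fell and 2.19% rose. After rescaling 9 fell and 1, Wnt4, rose, where 8.72% of all tested genes fell and 6.37% rose. The median log2 difference was -0.84 over the Wnt genes and -0.53 over all tested genes, and -0.38 and -0.06 after rescaling. The 6 genes with the largest differences were Sfrp2 (-2.55, adjusted p = 4.49e-05 by limma), Sfrp1 (-2.02), Tcf7l1 (-1.85), Tcf7 (-1.82), Wnt5b (-1.80) and Sfrp4 (-1.78), and all 6 were also called after rescaling, as were Dkk3, Fzd2 and Wnt10a. Wnt4 differed by 0.92 in the deposited FPKM, under the fold threshold, and by 1.57 (SE 0.19, adjusted p = 0.000122 by limma) after rescaling. Axin2 (-1.23 and -0.91) and Tcf7l2 (-1.07 and -0.63) were called in the deposited FPKM only. Without 4wk replicate 1, the shallowest library, the calls of Wnt2 (-0.90), Wnt6 (-0.42), Wnt10a (-0.91), Fzd8 (-0.94) and Axin1 (-0.79) were lost. Leaving out P5 replicate 1 ended those of Wnt2 (-0.90), Wnt6 (-0.90) and Tcf7l2 (-0.97).

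Between 4wk and 12wk, Fzd9 rose by 1.31 (log2, SE 0.20, adjusted p = 0.00207 by limma) and 0 Wnt genes fell in limma (4 higher and 5 lower at an unadjusted p under 0.05), where 2.68% of all tested genes rose and 2.48% fell. Fzd9 was also called after rescaling (1.50). When the 4 adult libraries were fitted alone, Fzd9 was not called at the same difference of 1.31, and 0 Wnt genes were called (7 at an unadjusted p under 0.05). Wnt4 was at 27.8 and 21.6 FPKM at 4wk and at 31.7 and 18.02 FPKM at 12wk, so its adult libraries overlapped between the ages.

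Other genes of the pathway were read from a list of 59, of which 54 were tested. Between adult and embryo, 35 of the 54 were lower and 1 higher in the deposited FPKM, and 16 lower and 1 higher after rescaling, to be read against the shares of all tested genes given above. Lower in the deposited FPKM were 6 of 10 receptors and co-receptors outside the Frizzled family, 4 of 7 extracellular and membrane inhibitors, 15 of 19 intracellular transducers, 5 of 10 planar polarity genes and 6 of 11 common target genes, where 3 genes of the list (Lgr5, Notum and Apcdd1) stand in 2 of these groups. After rescaling these counts were 4, 4, 4, 2 and 3. Shisa2, which holds back Frizzled proteins inside the cell, was between 18.8 and 30.5 FPKM in the embryo and between 0.320 and 1.79 FPKM in the adult, with a log2 difference of -3.74 (SE 0.20, adjusted p = 3.86e-09 by limma) and of -3.11 after rescaling.

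Ror2, a receptor for Wnt5a-type ligands, was between 3.31 and 12.6 FPKM in the embryo and between 0.0693 and 0.303 FPKM in the adult, and Ptk7, a planar polarity co-receptor, between 25.1 and 54.1 FPKM and between 3.44 and 6.79 FPKM. Both were called lower on both scalings (log2 differences of -2.77 and -2.37 for Ror2, and of -2.93 and -2.09 for Ptk7). Musk, a receptor tyrosine kinase of the nerve-muscle junction with a Frizzled-like domain, was the list's gene called higher in the adult, at 0 to 0.608 FPKM in the embryo, 1.59 and 1.30 FPKM at 4wk and 3.74 and 3.56 FPKM at 12wk (log2 difference 1.50, adjusted p = 1.63e-05 by limma, and 1.99 after rescaling). Ccnd1, which drives cells into division and is a common target of the β-catenin branch, was between 83.7 and 208 FPKM in the embryo and between 16.2 and 32.4 FPKM in the adult (log2 differences of -2.56 and -1.63, called on both). From E18.5 to P5, the list's Lgr6 (1.28) and Shisa3 (1.00) rose in the deposited FPKM, while none of the list was called from E14.5 to E16.5 or from E16.5 to E18.5 in limma on the deposited FPKM (6 higher and 10 lower, and 1 higher and 21 lower, at an unadjusted p under 0.05).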

How the data were processed

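Total RNA (1 µg) of 13 samples was made into Illumina TruSeq libraries and sequenced with single-end reads. The authors mapped reads to mm9 with TopHat2 2.0.13 and Bowtie2 2.2.6 and counted them on genes with featureCounts, leaving out reads with several positions or genes. The deposited values are FPKM, 1 per gene and sample. The submitters' processing notes also name DESeq2 1.10.1, for normalization between samples, but the median ratio of a library's FPKM to the gene means ranged from 0.617 to 1.38, so the values were taken as scaled to each library's total, and the rescaled FPKM (divided by these factors over the 13039 genes above 0 in every sample) were given beside them. Reads were recovered from the whole-number steps of low FPKM, and intervals and limits at 0 cover counting error only.

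Groups came from the sample labels, which give no batch. The study calls the replicates biological, and p-values of the steps measure the spread between libraries of the same time point. The spread behind the p-values of adult against embryo, and behind the stage SDs, also holds differences between ages within a stage. With limma 3.58.1 under R 4.3.3, log2(FPKM + 1) of 14650 genes was fitted by stage and by time point (eBayes with a trend), with adjusted p (Benjamini-Hochberg) over all of them. FPKM are not counts, so no count model was fitted. The code was tested on simulated data. Ratios, shares and figures used Python 3.11.15, pandas 2.3.3 and matplotlib 3.10.9. Positions and shared exons are from GENCODE for mm9, and start windows from RefSeq.

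Values in every sample were given for the 3 genes with the highest mean in each role, for up to 6 genes a direction with the largest change called on both scalings, and for genes called in a step. Wnt11 and Axin2 were added to this rule after their values were seen. The genes, lists and tests were chosen with earlier results of these data known. Alternatives were a pseudocount of 0.1, other filters, rescaling, no trend, an adjusted p below 0.05, the replicate number as a block, only the groups compared, time points weighted equally, each library left out, and 12wk alone as adult, the last chosen after seeing the data.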

Additional observations from a re-analysis of the deposited data

Results flagged for a closer look

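In the 89 groups looked at (the 7 embryonic or the 4 adult libraries of each tested gene), 10 held a library set apart from the rest by Dixon's criterion. Its chance rate of about 1 in 20 assumes libraries of a single age. These groups mix ages, so the 10 cannot be read against that rate. Of the 10, 7 were E14.5 replicate 1, 2 were 4wk replicate 1 and 1 was another library. In E14.5 replicate 1, Wnt2b was at 6.44 FPKM (nearest other embryonic library 2.86), Wnt5a at 6.43 FPKM (1.57), Fzd1 at 24.5 FPKM (15.0), Fzd10 at 6.28 FPKM (3.13), Dkk4 at 1.34 FPKM (0.0569), Wif1 at 2.52 FPKM (0.932) and Lef1 at 1.49 FPKM (0.264). In 4wk replicate 1, the shallowest library, Porcn was at 4.62 FPKM (2.69) and Wls at 35.4 FPKM (26.9). In E16.5 replicate 1, Fzd4 was at 5.61 FPKM, below the nearest value of 7.65.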

How the results depend on the processing

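Between adult and embryo, 25 Wnt genes were called, and 25 to 33 under a pseudocount of 0.1, the other filters, no trend, an adjusted p below 0.05, the replicate block, only the groups compared, time points weighted equally and 12wk alone as adult. The pseudocount of 0.1 gave 33, with Fzd10, Lef1, Rspo2, Wif1, Wnt5a, Wnt9a, Wnt10a and Wnt10b added, and 12wk alone gave 25, with Wnt2 and Dkk3 lost and Fzd10 and Wnt5a added. Rescaling gave 13, and rescaling with 12wk alone as adult, added after seeing the data, gave 14. Beside rescaling of all libraries, the latter added Axin2, Ctnnb1 and Rspo3 and lost Tcf7l2 and Porcn. For E16.5 against E14.5, 2 genes were called, and 1 with the replicate block, which lost Sfrp1 (-0.88). The block changed no other call. Deviations of same-numbered samples from their time point means had a mean correlation of -0.016 over 30 pairs, against 0.012 over 40 pairs with different numbers. In groups of 2 libraries these deviations are opposite by construction, so the 2 means largely mirror each other. Their contrast therefore cannot decide whether the numbers pair the samples. For E18.5 against E16.5, 4 were called, 1 after rescaling, 3 with a pseudocount of 0.1 (Fzd2 and Rspo1 lost, Dkk2 added) and 3 with an adjusted p below 0.05 (Fzd2 lost). For P5 against E18.5, 5 were called, 4 after rescaling and 6 with a pseudocount of 0.1 (Sfrp4 lost, Porcn and Sfrp5 added). For 4wk against P5, 16 were called, 10 after rescaling, 15 with only the groups compared (Wnt6 lost) and 24 with a pseudocount of 0.1. For 12wk against 4wk, 1 was called, 6 with a pseudocount of 0.1 (with Wnt5a, Wnt5b, Wnt10b, Rspo3 and Fzd10 lower) and 0 in limma with only the groups compared (7 at an unadjusted p under 0.05). The causes of these shifts were not tested. With each library left out in turn, the counts were 25 to 26 for adult against embryo, 1 to 2 for E16.5 against E14.5, 1 to 4 for E18.5 against E16.5, 3 to 5 for P5 against E18.5, 13 to 20 for 4wk against P5 (20 without 4wk replicate 2) and 1 to 3 for 12wk against 4wk (3 without 4wk replicate 2). None of the 53 calls of single genes turned its direction under any of these alternatives.

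The 4wk libraries are the shallowest, groups hold 2 or 3 libraries, and rescaling assumes that most genes do not differ. Levels under 1 FPKM in the adult rest on few reads, and folds there are understated by the pseudocount of 1.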
